A study of Mus musculus with 6 samples.

Results

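Axon guidance ligands and receptors are the semaphorins with their plexin and neuropilin receptors, the ephrins with their Eph receptors, the Slits with their Robo receptors, and the netrins with Dcc and the Unc5 receptors. They were read here in mouse olfactory bulbs on the side of a plugged naris and on the open side. Members were taken by gene symbol, which gave 72 of the 22095 genes of the table. Of these, 36 encode ligands and 34 encode receptors. The other two matched by their letters only: Unc50 encodes a membrane protein of the Golgi apparatus, and Unc5cl is related to the Unc5 receptors but is not known as a netrin receptor.

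These proteins steer growing axons and migrating cells by attraction or repulsion, and most of them stay expressed in the adult brain, where several act at synapses and blood vessels. In the mouse olfactory system, Nrp1 with Sema3a, Nrp2 with Sema3f, Robo2 with Slit1, and ephrin-A with EphA proteins help to sort the axons of sensory neurons as they grow into the bulb. The bulb keeps receiving new sensory axons and new interneurons throughout life.

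RNA was taken from 3 ICR mice, an outbred stock, numbered 1037, 1038 and 1039. The left naris of each was closed with a silica gel plug at postnatal day 30, and the bulbs were collected 60 days later, so that in each mouse the left bulb lay on the plugged side, with the right bulb as its open counterpart. No unoperated mouse was among the samples, and a difference between the sides that exists without a plug cannot be told apart from one that follows it. Polyadenylated RNA was sequenced, and the 6 libraries held 14571453 to 15590938 counts, so that 3 counts stood for 0.192 to 0.206 CPM. CPM is a gene's count as parts per 1000000 counts of its library, with no correction for gene length. In bulk RNA, fewer cells of a type and less RNA per cell cannot be told apart.

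The library labelled left 1038 goes against its label. Dlx1, a factor of bulb interneurons, stood at 0.618 CPM in it and Cdhr1, a gene of mitral and tufted cells, at 0.755 CPM, while the other 5 libraries held 304 to 358 CPM and 663 to 829.5 CPM. The lists as a whole were less low: the 10 bulb interneuron genes examined together held 1218 CPM in it, and 2819 to 3894 CPM in the other libraries. The 5 mitral and tufted cell genes together held 1044 CPM in it, and 2119 to 2539 CPM in the other libraries. The 6 cerebellar granule cell genes examined together held 4677 CPM in it, and 73.6 to 115 CPM in the other libraries. It was therefore kept out of the comparison, which set 2 left bulbs (mice 1037 and 1039) against 3 right bulbs, and its values are given apart.

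The 2 left bulbs differed from the 3 right bulbs in 20 members. Secreted class 3 semaphorins (Sema3c, Sema3e and Sema3g), Sema7a, Sema5b, the receptors Epha10 and Epha2, and Slit3 were lower in left bulbs. All 3 ephrin-B genes, 4 of the 9 plexins (Plxna1, Plxna3, Plxnb2 and Plxnc1), Sema6c, Sema4g, Efna3, Slit1 and Robo1 were higher. No neuropilin, netrin, netrin receptor or EphB receptor passed. Changes were moderate, with fitted levels in left bulbs between 0.53 and 1.52 times those in right bulbs among the called members.

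Calls are from edgeR's quasi-likelihood test over all genes, at an adjusted p (Benjamini-Hochberg) under 0.05. Of the 72 members, 68 had enough counts to be tested, 12 were called higher and 8 lower, and 48 were not called. Over all 14412 genes tested, 3.16% were called higher and 6.46% lower in left bulbs, 9.62% in all, while the members' shares were 17.6% and 11.8%. The median log2 fold change (left over right) was 0.06 over the members tested and 0.005 over all genes tested, and without left 1037 or left 1039 the members' value was -0.0018 or 0.112. These shares describe the members and were not themselves tested. Ligands gave 7 higher and 6 lower of 34 tested, and receptors 5 higher and 2 lower of 33 tested. Both left values lay above all 3 right values in 28 of the 68 members tested and below them in 12. Among all genes tested this held for 33.2% and 13.2%. All 20 called members were among these, but they were called from the same values, so this adds no support.

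**Figure D1:**
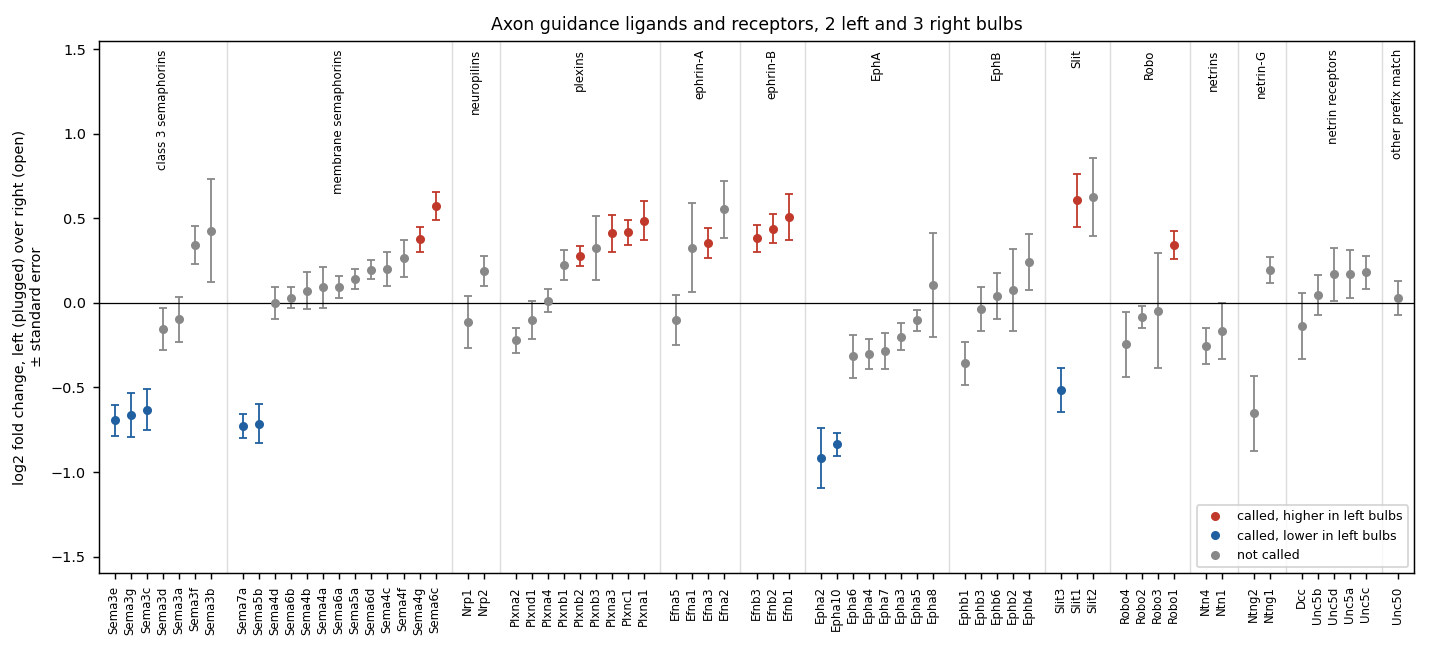
Log2 fold change (left over right, ± standard error) of the 68 members tested, grouped by family along the horizontal axis, with called members in red (higher in left bulbs) and blue (lower) and the others in grey. The called members above 0 include the 3 ephrin-B genes and 4 plexins, and those below it include 3 class 3 semaphorins, Sema7a, Sema5b, Epha10 and Epha2.

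The calls differ in how much they rest on single libraries. Epha10, Sema7a, Sema3e and Sema5b (lower) and Sema6c, Plxnc1 and Efnb2 (higher) were called in each of the 5 fits that left out 1 library, and the other 13 lost the call in at least 1 such fit. The number called higher was 7 without left 1037 or left 1039, 4 without right 1037, 5 without right 1038 and 10 without right 1039, and the number called lower was 6 or 7 throughout. Over all genes, the number called higher was 299 and 289 without left 1037 and left 1039, and 190, 172 and 366 without right 1037, right 1038 and right 1039, in place of 456. The number of all genes called lower was 479, 488 and 730 without right 1037, right 1038 and right 1039, in place of 931. All 20 called members kept the sign of their log2 fold change in each of the 5 leave-outs. When each mouse was entered as a block, mouse 1038 had only its right bulb, so the side difference rested on mice 1037 and 1039. With this block, 19 of the 20 calls held in edgeR (Efnb1 had adjusted p = 0.0581), and Plxna2 and Ntng2 were added. That gave 11 members higher and 10 lower, beside 3.41% and 7.36% of all genes (10.8% in all). DESeq2 with this block called 5 of the 20, beside 0.527% of all genes higher and 2.47% lower (3.00% in all), and these were Epha10, Sema7a, Sema3e and Sema3c (lower) and Sema6c (higher). DESeq2 gave no adjusted p for some genes, Epha2 among them, and these count as not called in the shares. The other 14 of the 20 had adjusted p from 0.0538 to 0.672. With the library labelled left 1038 added to the left bulbs, edgeR called 0 of all genes (smallest adjusted p = 0.343), and 1196 genes, 8 of them members, lay at an unadjusted p under 0.05. In that fit 16 of the 20 kept their sign, while Efnb3 had -0.07, Robo1 -0.08, Efna3 -0.05 and Slit3 0.11. Counted by total library size alone, without the TMM scaling (trimmed mean of M-values), 17 members were higher and 7 lower, and among all genes 975 were higher and 589 lower, in place of 456 and 931. The CPM values given below are relative to the library total, and the fold changes are after TMM scaling, whose factors were 1.03 and 1.04 in left bulbs and 0.971 to 0.983 in right bulbs.

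**Figure D2:**
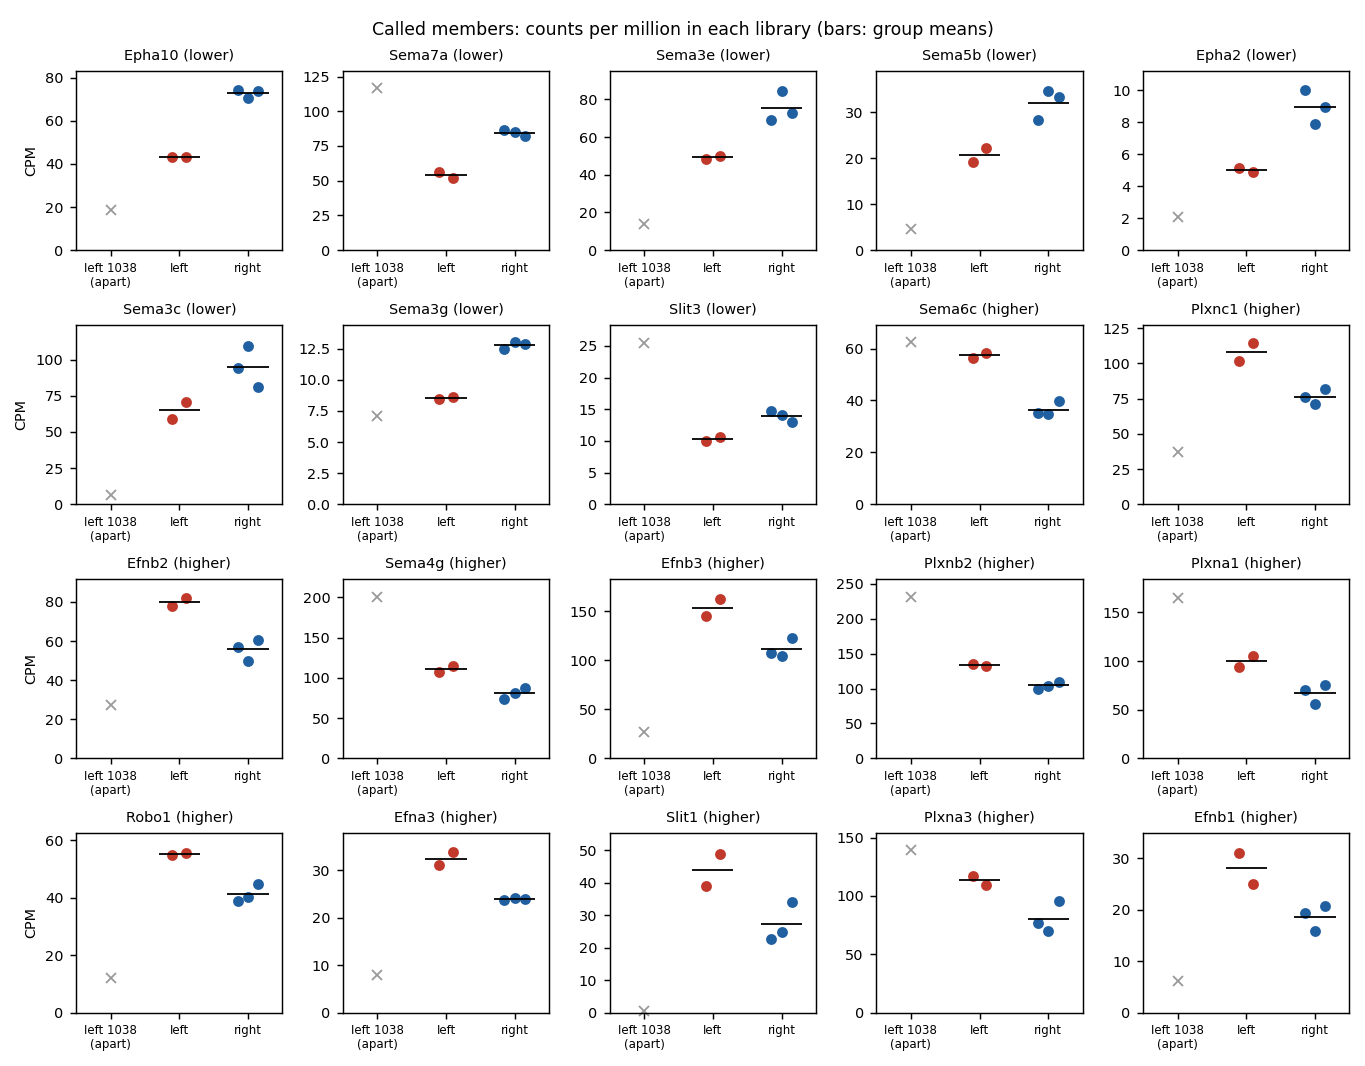
CPM of the 20 called members, 1 panel each, with the library labelled left 1038 as a grey cross, the 2 left bulbs in red, the 3 right bulbs in blue and black bars at the group means. In every panel the red points lie outside the range of the blue points, while the grey cross lies outside the range of the red points.

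The 4 promoter windows that follow are shown because they belong to called members and held a letter pattern linked with neuronal activity: those of Sema7a and of its receptor Plxnc1, which moved in opposite directions, of Epha2, the single called member with a full cAMP response element, and of Efnb2. Each runs from 250 bases before to 50 bases after the start of the gene in RefSeq (GRCm38.p6), 5′ to 3′ on the gene's strand, with the pattern in capitals, and they were chosen after the values were seen.
Sema7a (chr9:57939862-57940161, plus strand): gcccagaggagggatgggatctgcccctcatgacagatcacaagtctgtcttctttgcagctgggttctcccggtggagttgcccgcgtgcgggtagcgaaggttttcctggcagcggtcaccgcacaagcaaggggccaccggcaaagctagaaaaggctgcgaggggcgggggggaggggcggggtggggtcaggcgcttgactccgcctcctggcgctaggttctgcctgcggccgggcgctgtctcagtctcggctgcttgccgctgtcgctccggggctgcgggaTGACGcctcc
Plxnc1 (chr10:94944796-94945095, minus strand): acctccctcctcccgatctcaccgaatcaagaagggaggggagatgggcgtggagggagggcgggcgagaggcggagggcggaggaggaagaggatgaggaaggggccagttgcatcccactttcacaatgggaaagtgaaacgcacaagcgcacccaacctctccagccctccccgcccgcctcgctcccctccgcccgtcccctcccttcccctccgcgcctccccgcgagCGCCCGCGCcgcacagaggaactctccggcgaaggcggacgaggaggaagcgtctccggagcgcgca
Epha2 (chr4:141300971-141301270, plus strand): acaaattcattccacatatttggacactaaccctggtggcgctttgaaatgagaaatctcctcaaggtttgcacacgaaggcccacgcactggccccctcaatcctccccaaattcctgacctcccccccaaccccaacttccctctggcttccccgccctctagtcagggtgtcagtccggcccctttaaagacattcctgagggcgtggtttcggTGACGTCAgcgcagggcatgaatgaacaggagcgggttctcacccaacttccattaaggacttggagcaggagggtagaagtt
Efnb2 (chr8:8661193-8661492, minus strand): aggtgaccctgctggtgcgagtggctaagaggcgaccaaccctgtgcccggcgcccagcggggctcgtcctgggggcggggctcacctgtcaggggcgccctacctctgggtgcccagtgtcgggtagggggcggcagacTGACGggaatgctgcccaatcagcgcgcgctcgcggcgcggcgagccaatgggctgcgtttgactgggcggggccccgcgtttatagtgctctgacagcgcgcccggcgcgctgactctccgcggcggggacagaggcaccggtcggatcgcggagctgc
The patterns searched on both strands were the cAMP response element TGACGTCA, its half-site TGACG, which lies inside the full element, the AP-1 pattern TGANTCA and the EGR pattern GCGNGGGCG. Sema7a holds the half-site 40 bases after the start, Plxnc1 the EGR pattern (in reverse) 17 bases before it, Epha2 the full element 33 bases before it and Efnb2 the half-site 110 bases before it. Of the 20 windows of the 17 called members in the RefSeq table, 1 held the full element, 4 the half-site, 0 the AP-1 pattern and 5 the EGR pattern. Among all 32851 windows the shares were 1.79%, 20.8%, 7.81% and 5.55%. The 5 EGR windows belong to Efna3, Plxnb2, Plxnc1 and Sema4g (higher in left bulbs) and Slit3 (lower), and among members that were not called 8 of 54 windows held it. A match is a run of letters and was not tested for binding.

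Semaphorins signal through plexins, and the secreted class 3 proteins mostly need a neuropilin as well. Of the 7 class 3 genes, 3 were lower in left bulbs and 0 higher. Sema3e, which binds Plxnd1 directly and is known for patterning blood vessels, stood at 48.6 and 50.2 CPM in left bulbs, against 69.1, 84.7 and 72.7 CPM in right bulbs. Both left values lay below every right value, and Sema3e fell by 0.69 on the log2 scale (SE 0.09, adjusted p = 0.00226). Sema3c, which acts through neuropilins and Plxnd1, was the class 3 gene with the most reads, at 58.9 and 70.9 CPM in left bulbs and 93.9, 109.7 and 81.1 CPM in right bulbs, where mouse 1039 gave the closest pair. It fell by 0.63 (SE 0.12, adjusted p = 0.0125), and the call ended without left 1037 (adjusted p = 0.0550).

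Sema3g, known from endothelial cells, was tighter within each side, at 8.49 and 8.63 CPM in left bulbs and 12.4, 13.1 and 12.9 CPM in right bulbs. It fell by 0.66 (SE 0.13, adjusted p = 0.0131), a call lost when either left bulb was left out (adjusted p at most 0.0546). The 9 endothelial and mural genes fixed as markers, such as Cldn5 and Pecam1, had 1 called lower (Kdr) and 0 higher, and their summed level was 328 to 344 CPM in left bulbs and 322 to 375 CPM in right bulbs. Their part in the Sema3g value was not tested. Sema3a and Sema3f, the class 3 ligands known from the olfactory map, did not pass. Sema3a, at 43.1 and 32.7 CPM in left bulbs and 38.0, 42.8 and 34.3 CPM in right bulbs, had a log2 fold change of -0.10 (SE 0.13, adjusted p = 0.700), with sides that overlap. Sema3f had 19.8 and 18.1 CPM in left bulbs and 13.8, 14.6 and 14.0 CPM in right bulbs, with a log2 fold change of 0.34 (SE 0.11, adjusted p = 0.0874). Its left values lay above the right ones, and it passed when scaled by total library size alone (adjusted p = 0.0394). Sema3b and Sema3d did not pass, with 0.43 and -0.15, but Sema3d passed without left 1037 (-0.41, adjusted p = 0.0428), and its leave-outs reached 0.07.

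Membrane semaphorins of the other classes split in direction, with 2 called higher and 2 lower of 13. Sema7a is tethered to the membrane by a lipid anchor, is known in mouse from sensory axons in the bulb, and binds Plxnc1 on the dendrites of mitral and tufted cells. It held 56.1 and 52.0 CPM in left bulbs and 86.3, 85.0 and 82.5 CPM in right bulbs, 2 narrow ranges that lie far apart. Sema7a fell by 0.73 (SE 0.07, adjusted p = 0.000606). All 7 sensory neuron genes fixed as markers lay below 0 as well, 5 of them called, and their summed level was 188 and 126 CPM in left bulbs and 372 to 457 CPM in right bulbs. In the library labelled left 1038, which was kept out of the comparison, the same 7 genes summed to 331 CPM and Sema7a stood at 116 CPM. The part of the sensory neuron genes in the Sema7a value was not tested.

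Sema5b, a transmembrane semaphorin with thrombospondin repeats, fell by 0.71 (SE 0.12, adjusted p = 0.00543), with 19.1 and 22.3 CPM in left bulbs and 28.3, 34.6 and 33.3 CPM in right bulbs. Sema5a, of the same class, was not called, with 116 and 111 CPM in left bulbs, 99.6, 98.2 and 94.9 CPM in right bulbs and a log2 fold change of 0.14 (SE 0.06, adjusted p = 0.181). It passed by total library size alone (adjusted p = 0.0388). In the other direction, Sema6c, a transmembrane ligand of the plexin-A group, had 56.5 and 58.5 CPM in left bulbs, against 35.0, 34.7 and 39.7 CPM in right bulbs. The right bulbs differed little among themselves, and Sema6c rose by 0.57 (SE 0.08, adjusted p = 0.00350). Sema4g, a ligand of Plxnb2, rose by 0.38 (SE 0.08, adjusted p = 0.0146), with 107 and 114 CPM in left bulbs and 73.4, 81.0 and 87.9 CPM in right bulbs. This call ended without left 1039 (adjusted p = 0.0619). Sema6d, the membrane semaphorin with the most reads, lay just outside the threshold, at 149 and 144 CPM in left bulbs and 118, 121.5 and 123 CPM in right bulbs, with 0.20 (SE 0.06, adjusted p = 0.0547). It passed by total library size alone and under a filter of 1 CPM in 3 libraries (adjusted p = 0.0145 and 0.0442). The other 7 had log2 fold changes from -0.002 (Sema4d) to 0.26 (Sema4f).

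Plexins are the signalling receptors of semaphorins, and 4 of 9 were higher in left bulbs and 0 lower. Plxnc1, the receptor of Sema7a, stood at 102 and 114 CPM in left bulbs and 76.4, 71.2 and 81.5 CPM in right bulbs. It rose by 0.42 (SE 0.08, adjusted p = 0.00886). The ligand Sema7a and its receptor Plxnc1 thus moved in opposite directions in the same libraries, with log2(CPM + 0.5) differences (left minus right) within mouse 1037 of -0.62 for Sema7a and 0.41 for Plxnc1, and of -0.66 and 0.48 within mouse 1039. Of the 5 mitral and tufted cell genes measured, 2 were called higher and 0 lower, and their summed level was 2539 and 2135 CPM in left bulbs and 2119 to 2178 CPM in right bulbs. Their part in the Plxnc1 value was not tested.

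Plxna1 and Plxna3, receptors that pair with neuropilins and also bind class 6 semaphorins, rose by 0.49 (SE 0.11, adjusted p = 0.0280) and 0.41 (SE 0.11, adjusted p = 0.0437). Plxna1 held 93.8 and 105 CPM in left bulbs and 70.2, 55.5 and 75.8 CPM in right bulbs, and Plxna3 held 117 and 109.5 CPM in left bulbs and 76.5, 70.0 and 95.4 CPM in right bulbs. For both genes the right bulb of mouse 1039 came nearest to the left bulbs and that of mouse 1038 lay lowest. Plxnb2, the receptor of class 4 semaphorins, rose by 0.28 (SE 0.06, adjusted p = 0.0177), with 136 and 133 CPM in left bulbs and 100.1, 104 and 109 CPM in right bulbs. Several of these calls rest on single libraries: that of Plxna1 was lost without left 1039 and also without right 1037 (adjusted p at most 0.107), that of Plxnb2 with either left 1037 or the right bulb of 1037 or of 1038 left out (at most 0.0711), and that of Plxna3 in every leave-out but that of right 1039 (adjusted p at most 0.146). Plxna2, the plexin with the highest mean CPM over the 5 libraries, though below Plxnb1 in both left bulbs, had 145 and 127 CPM in left bulbs and 156, 142 and 153 CPM in right bulbs, and its log2 fold change of -0.22 (SE 0.07, adjusted p = 0.0925) passed with the mouse as a block in edgeR (adjusted p = 0.0224) and without left 1037 (adjusted p = 0.0386). Plxnd1, the receptor of Sema3e, had -0.10 (SE 0.11, adjusted p = 0.633), and Plxna4, Plxnb1 and Plxnb3 had 0.01, 0.22 and 0.32, of which Plxnb1 passed without left 1039 (0.35, adjusted p = 0.0399).

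Neuropilins, the binding partners of class 3 semaphorins, gave 0 calls of 2 in edgeR, DESeq2 and limma-voom, with 0 at an unadjusted p under 0.05. Nrp1 had 36.2 and 24.2 CPM in left bulbs and 32.0, 32.1 and 28.5 CPM in right bulbs, so that the 2 left bulbs lay on either side of the right ones (log2 fold change -0.11, SE 0.15, adjusted p = 0.700). Nrp2, at 33.7 and 37.9 CPM in left bulbs and 29.5, 29.1 and 30.5 CPM in right bulbs, had 0.19 (SE 0.09, adjusted p = 0.225).

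Ephrins bind Eph receptor kinases on neighbouring cells and signal in both directions. All 3 ephrin-B genes, which encode transmembrane ligands, were higher in left bulbs. Efnb2, known from arterial endothelium and from neurons, had 77.7 and 82.2 CPM in left bulbs and 56.8, 50.02 and 60.4 CPM in right bulbs, and rose by 0.44 (SE 0.08, adjusted p = 0.0119). Efnb3, known from neurons and from midline cells that repel axons, had 145 and 162 CPM in left bulbs and 107, 104 and 123 CPM in right bulbs, and rose by 0.38 (SE 0.08, adjusted p = 0.0176). Efnb1 rose by 0.51 (SE 0.14, adjusted p = 0.0471), with 31.1 and 25.02 CPM in left bulbs and 19.3, 15.9 and 20.8 CPM in right bulbs, where the left bulb of mouse 1039 lay closest to the right ones. The summed level of the 3 genes was 254 and 269.7 CPM in left bulbs and 170.0 to 204 CPM in right bulbs. Of the 3 calls, that of Efnb2 held in each leave-out, that of Efnb3 was lost when left 1039 or the right bulb of 1037 or of 1038 was left out (adjusted p at most 0.0818), and that of Efnb1 ended in every leave-out but that of left 1039 (adjusted p at most 0.256).

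Ephrin-A genes encode ligands with a lipid anchor, and 1 of the 4 tested was called. Efna3 rose by 0.35 (SE 0.09, adjusted p = 0.0335), with 31.1 and 33.7 CPM in left bulbs and 23.7, 24.1 and 24.0 CPM in right bulbs, but the call ended in each leave-out (adjusted p at most 0.159). Efna5, which marks subsets of sensory axons in mouse, had 28.4 and 20.6 CPM in left bulbs and 26.0, 26.8 and 21.6 CPM in right bulbs, with -0.10 (SE 0.15, adjusted p = 0.729). Its sides overlap, as do those of its receptor Epha5, which held 237 and 244 CPM in left bulbs and 253, 247 and 231 CPM in right bulbs (-0.10, SE 0.06, adjusted p = 0.345). Efna1 and Efna2 had 0.33 and 0.55 and did not pass, the second with adjusted p = 0.0738 and adjusted p = 0.0446 by total library size alone. Efna4 had too few counts to be tested, at 0.398 to 0.583 CPM in left bulbs and 0.321 to 0.546 CPM in right bulbs.

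EphA receptors gave 2 lower, 0 higher and 6 not called, and 7 of the 8 tested lay below 0. Epha10, whose kinase domain is known to lack activity, showed the smallest p of all members. It stood at 43.3 and 43.1 CPM in left bulbs, against 74.3, 70.6 and 73.7 CPM in right bulbs, and the spread within each side was small beside the gap. Epha10 fell by 0.84 (SE 0.07, adjusted p = 0.000353). Epha2, a receptor known from epithelia and vessels, fell by 0.92 (SE 0.18, adjusted p = 0.0118) at a low level, with 5.12 and 4.91 CPM in left bulbs and 10.01, 7.88 and 8.94 CPM in right bulbs. Its call ended without right 1037 (adjusted p = 0.0525). Epha3, Epha4, Epha6 and Epha7 had -0.20, -0.30, -0.32 and -0.29 and adjusted p from 0.0628 to 0.159, of which Epha4 passed without left 1039 (-0.45, adjusted p = 0.0147) and in DESeq2 without the block (adjusted p = 0.0379). Epha8 had 0.11 at about 2 CPM. Epha1 was too low to be tested, at 0.454 and 0.597 CPM in left bulbs and 0.410 to 0.994 CPM in right bulbs, and shares 236 bases of exon with Zyx.

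EphB receptors, which bind the ephrin-B ligands, gave 0 calls among 5 tested in edgeR, DESeq2 and limma-voom, with 1 at an unadjusted p under 0.05. Ephb6, the EphB gene with the highest mean CPM over the 5 libraries and another receptor without kinase activity, had 19.1 and 21.2 CPM in left bulbs and 15.3, 19.5 and 20.8 CPM in right bulbs (0.04, SE 0.14, adjusted p = 0.886). Ephb1 had -0.36 (SE 0.13, adjusted p = 0.115), and Ephb2, Ephb3 and Ephb4 had 0.08, -0.04 (0.05 by total library size) and 0.24. The summed level of the 5 receptors was 66.4 and 64.5 CPM in left bulbs and 55.4 to 67.4 CPM in right bulbs, so that the sides overlapped where those of the ephrin-B ligands did not.

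Slits are secreted ligands that repel axons carrying Robo receptors. Slit1 had 38.8 and 48.7 CPM in left bulbs and 22.7, 24.8 and 34.1 CPM in right bulbs, with mouse 1039 higher than mouse 1037 on each side. It rose by 0.61 (SE 0.16, adjusted p = 0.0423), and the call was lost when left 1039 or the right bulb of 1037 or of 1038 was left out (adjusted p at most 0.187). Slit3, known outside the nervous system as well, moved the other way, with 9.98 and 10.7 CPM in left bulbs and 14.8, 14.1 and 13.0 CPM in right bulbs. It fell by 0.52 (SE 0.13, adjusted p = 0.0382), a call that ended in each leave-out (adjusted p at most 0.159) and by total library size alone (adjusted p = 0.0637). Slit2, at 5.83 and 5.24 CPM in left bulbs and 3.72, 3.84 and 2.59 CPM in right bulbs, had 0.62 (SE 0.23, adjusted p = 0.127).

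Robo1, a Slit receptor also known from migrating interneuron precursors, was the single Robo gene called. It rose by 0.34 (SE 0.08, adjusted p = 0.0298), with 54.9 and 55.6 CPM in left bulbs and 38.8, 40.3 and 44.6 CPM in right bulbs, and the call ended in every leave-out but that of right 1039 (adjusted p at most 0.0934). Robo2, the Robo gene with the most reads, had nearly the same level on both sides, at 229 and 253 CPM in left bulbs and 232, 249 and 243 CPM in right bulbs, with a log2 fold change of -0.08 (SE 0.06, adjusted p = 0.460). Robo3, which is known for commissural axons, and Robo4, known from endothelium, had -0.05 (0.04 by total library size) and -0.25 and did not pass.

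Netrins attract axons through Dcc and repel them through Unc5 receptors, and none of these genes was called: 0 of 2 netrins, 0 of 2 netrin-G genes and 0 of 5 receptors by edgeR, DESeq2 and limma-voom, with 1, 2 and 0 at an unadjusted p under 0.05. Ntn1 had 18.4 and 13.4 CPM in left bulbs and 19.4, 15.9 and 15.3 CPM in right bulbs (-0.17, SE 0.16, adjusted p = 0.586). Dcc had 13.7 and 9.69 CPM in left bulbs and 13.0, 13.8 and 9.62 CPM in right bulbs (-0.14, SE 0.20, adjusted p = 0.727), and the bulbs of mouse 1039 were lower than those of mouse 1037 on each side. Ntn4, a laminin-binding netrin and the netrin with the most reads, had 45.1 and 50.7 CPM in left bulbs and 47.8, 60.7 and 53.6 CPM in right bulbs (-0.26, SE 0.10, adjusted p = 0.164). Unc5c, the netrin receptor with the highest mean CPM over the 5 libraries, had 26.6 and 27.9 CPM in left bulbs and 23.9, 21.3 and 22.9 CPM in right bulbs (0.18, SE 0.10, adjusted p = 0.281), and Unc5a, Unc5b and Unc5d had 0.17, 0.04 and 0.17. The netrin-G proteins are anchored to the membrane and bind synaptic partners rather than Dcc. Ntng1 had 156 and 133 CPM in left bulbs and 114, 126 and 118 CPM in right bulbs (0.20, SE 0.08, adjusted p = 0.146), and passed by total library size alone and without left 1039 (adjusted p = 0.0459 and 0.0378). Ntng2 had -0.65 (SE 0.22, adjusted p = 0.0970) and passed with the mouse as a block in edgeR (adjusted p = 0.0443). Ntn5 and Unc5cl were at or under 0.546 CPM in each of the 5 libraries and were not tested, and Unc50 had 0.03 (SE 0.10, adjusted p = 0.891).

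Per kilobase of exon, the ephrin-B gene Efnb3 had the highest level of all members, with 48.3 ± 3.90 CPM per kilobase in left bulbs (SD, n = 2) and 35.0 ± 3.19 in right bulbs (SD, n = 3). Sema7a came second in right bulbs at 25.7 ± 0.586 CPM per kilobase, and in left bulbs it came sixth at 16.4 ± 0.872. Sema6b, whose log2 fold change was 0.03 (SE 0.06, adjusted p = 0.813), followed with 19.6 ± 0.657 CPM per kilobase in left bulbs and 18.1 ± 0.567 in right bulbs. Epha5, Ntng1, Ntn4 and Robo2 lay close together in right bulbs, between 14.2 and 14.6 CPM per kilobase, and did not differ beyond their spread. The order therefore held ligands and receptors of several families at its top. Exon lengths are the union of all annotated exons, which understates genes with exons that the bulb does not use.

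**Figure D3:**
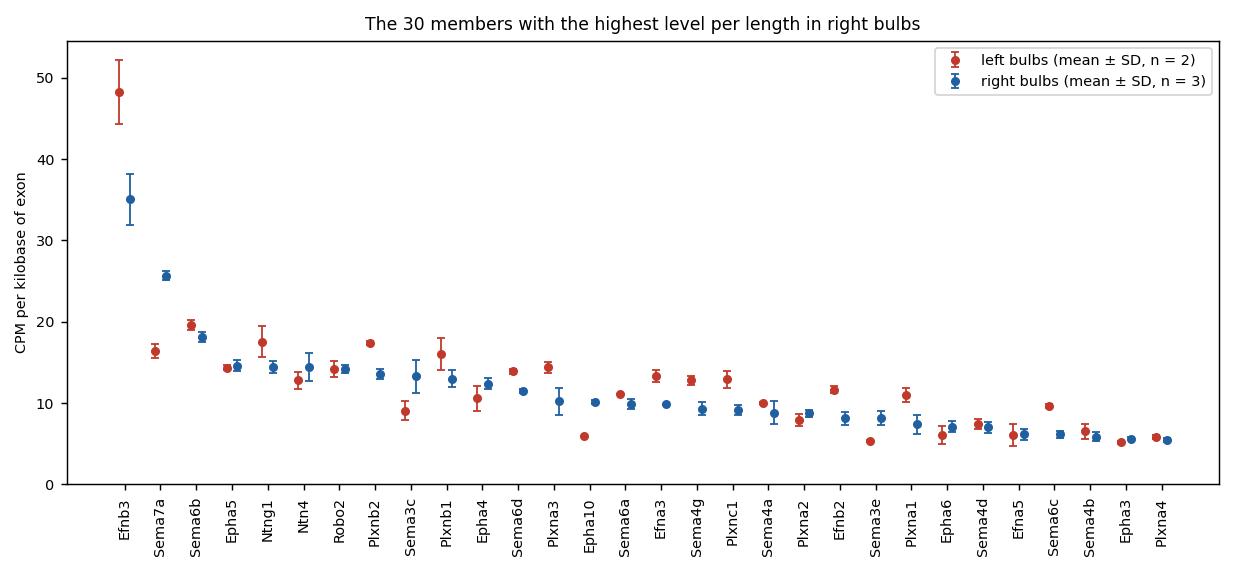
Level per length (CPM per kilobase of exon, mean ± SD) of the 30 ligands and receptors that are highest in right bulbs, with left bulbs (n = 2) in red and right bulbs (n = 3) in blue, in order of the right level. Efnb3 is highest on both sides, and Sema7a is second in right bulbs but is passed by several genes in left bulbs.

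Other genes of these pathways were read from a list of 55 co-receptors and signalling proteins. Of these, 7 were called higher and 8 lower, beside 3.16% and 6.46% of all genes tested. Without right 1037 or right 1038 the number higher was 4 and the number lower 4. Over all genes these fits gave 190 and 172 higher and 479 and 488 lower. Among co-receptors, the adhesion molecules L1cam, a partner of Nrp1, and Cntn2 were higher in left bulbs. L1cam rose by 0.49 (SE 0.08, adjusted p = 0.00547), with 149 and 135 CPM in left bulbs and 94.3, 87.7 and 104 CPM in right bulbs, and Cntn2 rose by 0.38 (adjusted p = 0.0108). Their relatives Nrcam and Chl1, which also partner with neuropilins, fell by 0.32 (adjusted p = 0.0107) and 0.76 (adjusted p = 0.0169), and the VEGF receptor Kdr fell by 0.58 (adjusted p = 0.0237). The values of Chl1 in left bulbs lay apart from each other, at 57.7 and 35.6 CPM, and its log2 fold change was -1.15 without left 1037 and -0.44 without left 1039. Calls of Nrcam were lost without right 1037, of Chl1 without right 1037 and without right 1038, and of Kdr with any of left 1039, right 1038 and right 1039 left out (adjusted p at most 0.103 among them).

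Among signalling proteins downstream of these receptors, the actin-binding Ablim3 fell by 0.45 (SE 0.07, adjusted p = 0.00355), with 200.2 and 228 CPM in left bulbs and 273 to 279.8 CPM in right bulbs. Dpysl2, the collapsin response mediator that class 3 semaphorins act on, rose by 0.37 (SE 0.06, adjusted p = 0.00607), and Mical2, an oxidase of actin, fell by 0.36 (SE 0.06, adjusted p = 0.00639). These 3 held in each leave-out, as did L1cam and Cntn2. Vav2, an exchange factor downstream of Eph receptors, and Farp1 and Limk2 rose by 0.43, 0.21 and 0.23, and Limk1, Arhgef12, a partner of plexin-B, and Sipa1l1 fell by 0.42, 0.25 and 0.28. Those 6 calls ended in 1 or more leave-outs: Limk1 without left 1039, Vav2 and Arhgef12 with any of left 1039, right 1037 and right 1038 left out, Sipa1l1 in each but that of left 1039, and Farp1 and Limk2 in all (adjusted p at most 0.159 among them). The value of Sipa1l1 was -0.17 without left 1037.

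Markers of the cell types a bulb sample can hold moved as follows, and their part in the members' values was not tested. Of all genes tested, 3.16% were called higher and 6.46% lower. Of 6 microglial genes 1 was called higher and 0 lower, with a summed level of 220 and 228 CPM in left bulbs and 172 to 179.9 CPM in right bulbs. Among 5 astrocyte genes 2 were higher, at 2117 and 2094 CPM in left bulbs and 1558 to 1735 CPM in right bulbs. For 10 bulb interneuron genes, 1 was higher and 5 lower, at 2819 and 3109 CPM in left bulbs and 3622 to 3894 CPM in right bulbs. Ensheathing glia had 1 of 7 lower, at 1534 and 1224 CPM in left bulbs and 1561 to 1695 CPM in right bulbs. Of 6 oligodendrocyte and 5 fibroblast genes, 0 were called by edgeR, DESeq2 and limma-voom, with 1 and 0 at an unadjusted p under 0.05, and right 1038 held more of the fibroblast sum (274 CPM) than the other 4 bulbs (125 to 204 CPM). Cerebellar granule cell genes had 1 of 4 tested higher (Neurod1) and 0 lower, at 115 and 101 CPM for all 6 in left bulbs and 73.6 to 79.3 CPM in right bulbs, and Purkinje cell genes had 0 of 3 tested called by these tools, with 0 at an unadjusted p under 0.05. Barhl1, a defining gene of cerebellar granule cells, was at 0 or 0.0664 CPM in the 5 libraries.

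The library labelled left 1038 gave another profile of these genes, which is a description of 1 library. Of the 68 members, 6 lay within the range of the other 5 libraries, 22 above and 40 below, while of all 14412 genes 22.8% lay within it, 35.2% above and 42% below. Over 2-fold differences from the median of the others, on the log2(CPM + 0.5) scale, were seen for 12 members above and 30 below, 17.6% and 44.1%, against 7.58% and 16.5% of all genes. Epha8 was farthest above, with 101 CPM in it and a median of 2.25 CPM in the others. Ephb2, Unc5b, Unc5c, Unc5a and Ntn1 followed with 57.4, 87.2, 98.0, 69.2 and 55.0 CPM, and the Unc5 receptors are known from cerebellar neurons. Slit1 was farthest below, with 5 counts (0.343 CPM) and a median of 34.1 CPM in the others. Epha6, Epha5, Sema3c, Sema3a and Nrp1 stood at 2.47, 17.1, 6.73, 3.36 and 3.77 CPM, against medians of 35.8, 244, 81.1, 38.0 and 32.0 CPM. By family, all 3 ephrin-B genes, both neuropilins and 5 of 7 class 3 semaphorins were over 2-fold below, and 3 of the 5 netrin receptors were over 2-fold above.

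**Figure D4:**
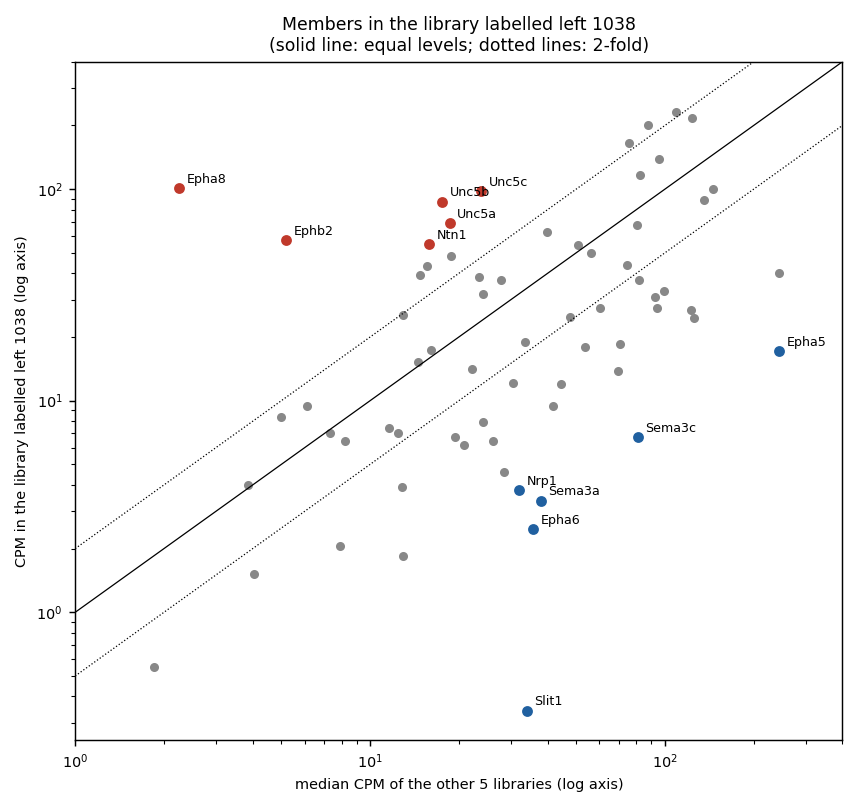
CPM of the 68 tested members in the library labelled left 1038 (vertical, log axis) against the median of the other 5 libraries (horizontal, log axis), with the 6 members farthest above in red and the 6 farthest below in blue. Epha8 at 101 CPM and Slit1 at 0.343 CPM lie farthest from the line of equal levels.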

How the data were processed

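The deposited table gives whole-number read counts per gene and library and an RPKM value, per the file headers. The build GRCm38 is named, per the submitters' processing notes, as are the tools HTSeq 0.6.1p2, TopHat2 and cutadapt 1.2.1, besides DESeq 1.18.0; their order and settings, strand use included, were not given in the sources used here. Deposited RPKM values use a length within 1 base of the genomic span, introns included, for 78.3% of genes, so they were not used. Symbols, coordinates and exon lengths came from GENCODE M21 (GRCm38), which matched 21852 of 22095 identifiers. Of the members, 4 share exon bases with another gene of the table, whose reads cannot be told apart: Epha1, Ephb4, Unc5a and Ntn5.

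Counts were filtered with filterByExpr, scaled by TMM and tested with edgeR 4.0.16 (two-sided quasi-likelihood test, side as the single term). The standard error (SE) was derived from that test, as the absolute log2 fold change divided by the square root of its F statistic. The same fit was also run on counts simulated without pairing of bulbs, so that run cannot show how the pairing affects the calls. DESeq2 1.42.0 and limma 3.58.1 were alternatives in R 4.3.3, beside RLE scaling, total library size, 2 other filters (none, or 1 CPM in 3 libraries), leave-outs of each library and the mouse as a block. Both bulbs of a mouse share its number, so they are paired by design; deviations from the side means correlated at 0.233 and 0.248 in mice 1037 and 1039, which with 2 left bulbs are not independent. The CPM that 3 counts stood for reflects counting only and holds no variation between bulbs. Named genes were all called members, the member with the highest mean CPM over the 5 libraries in each family, 11 genes of the olfactory map and the 6 members farthest above and below in the library labelled left 1038, which was kept apart; other members are named as the rest of their family. Members and lists were chosen with earlier results of these data known. The values of 1 pathway gene are not reported here.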

Additional observations from a re-analysis of the deposited data

Results flagged for a closer look

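In the library labelled left 1038, which stands outside the comparison of sides, 4 members with at least 10 CPM stood more than 4-fold above the highest right bulb. Epha8, an EphA receptor, had 101 CPM in it and 1.57 to 2.37 CPM in right bulbs. Unc5c and Unc5b, receptors of netrins, had 98.0 and 87.2 CPM in it, while right bulbs had 21.3 to 23.9 CPM and 15.1 to 18.4 CPM. Ephb2, an EphB receptor, had 57.4 CPM in it and 3.40 to 5.37 CPM in right bulbs. The 4 Purkinje cell genes examined summed to 2205 CPM in this library and 34.5 to 43.1 CPM in the other 5, and their part in these values was not tested.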

How the results depend on the processing

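RLE scaling, limma-voom and both other filters left all 20 member calls in place. With all 6 libraries, 0 genes, 0 members (either direction) and 0 of the pathway genes were called, and the members' median was -0.0466. There, among the members chosen to be named, Efnb3, Robo1, Efna3, Slit3, Ntng1, Nrp2, Ephb6 and Ntn1 changed sign, at -0.0715, -0.0810, -0.0475, 0.111, -0.258, -0.155, -0.301 and 0.756. Among the rest of the members, Ephb1, Plxnd1, Plxna4, Sema4a, Sema4b, Sema5a, Sema6a, Sema6b and Unc5d changed sign as well. This fit differs from the main one only by the added library labelled left 1038, and why that library differs was not tested. By total library size the members' median was 0.140 and 11 pathway genes were higher. DESeq2 with the replicate block called 432 genes, 1 member higher and 4 lower, and 3 pathway genes higher and 1 lower; without the block it lost the calls of Efna3 and Slit3 and gained that of Epha4. In edgeR, the replicate block called 1553 genes, 11 members higher and 10 lower, and changed no call of a named member but those of Efnb1, Plxna2 and Ntng2. Leaving out 1 library gave 660 to 1096 genes (885, 669 and 660 without left 1039, right 1037 and right 1038), 4 to 10 members higher and 6 to 7 lower, 4 to 5 pathway genes higher and 4 to 10 lower, and a median of -0.0018 to 0.112. Among members that were not called, Ephb6 ranged from -0.0681 to 0.130, Sema3a from -0.310 to 0.0987, Nrp1 from -0.434 to 0.160, Efna5 from -0.352 to 0.122, Ntn1 from -0.412 to 0.0547, Dcc from -0.405 to 0.102, Epha8 from -0.0884 to 0.289, Ephb2 from -0.0996 to 0.242 and Unc5b from -0.0150 to 0.114; Sema3d, Sema4a, Sema4b, Sema4d, Sema6b, Ephb3, Plxna4, Robo3 and Unc50 also changed sign in some leave-out. Fewer samples enter these fits, and where 1 left bulb remained it was assumed to vary like the right bulbs.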
